A study of Mus musculus with 6 samples.

Results

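The 9 orphan nuclear receptor genes described here were Nr2f1, Nr2f2 and Nr2f6 (the COUP-TF group), Nr2c1 and Nr2c2 (the testicular receptors), Nr6a1 (GCNF), Nr5a2 (Lrh1), Nr0b1 (Dax1) and Esrrb, in retinoic acid (RA) treated embryoid bodies (EBs). They were taken by symbol out of 19938 genes measured, and each had 1 probe set on the array, which carried no other gene's symbol. EBs are floating aggregates in which mouse embryonic stem (ES) cells leave the pluripotent state, here made from the R1 line, by 4 days of culture in medium without Lif, a factor that keeps ES cells undifferentiated. Day 0 EBs were collected at the time of RA addition and had received none, day 3 EBs had been kept in 2 μM RA for 3 days, and day 4 EBs for 4 days. Total RNA of each day was measured on 2 Affymetrix Mouse Gene 1.0 ST arrays, 6 arrays in all, and the values are log2 intensities after RMA, a normalization that brings the probe signals of all arrays to 1 distribution. Since day 3 and day 4 EBs were also older than day 0 EBs, the effects of RA and of the added culture time cannot be told apart. The study describes the day 0 and day 4 RNA that it sequenced as biological replicates, but neither it nor the labels say whether the arrays of a day came from separate cultures, so the p-values measure the spread between arrays, which may be technical.

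Nuclear receptors are transcription factors that bind DNA through a pair of zinc fingers, mostly at copies of the half-site AGGTCA, and switch target genes on or off through a ligand-binding domain. A receptor is called an orphan when it was found before any ligand was known for it. In early mouse embryos several of these genes work at the exit from pluripotency: Nr5a2 and Esrrb help to keep ES cells undifferentiated, Nr6a1 shuts down Pou5f1, and the COUP-TFs are known from RA-treated cells and from developing nerves, veins and mesenchyme.

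To show where receptor half-sites could lie in these genes, windows of 250 bases before to 50 bases after a transcription start were taken from RefSeq (GRCm38.p6). All 9 genes matched, with 13 windows. The windows below are of the COUP-TF genes with the largest rise and of the gene with the largest fall among the 9. They are in lower case with half-sites on either strand in capitals. Nr2f1 and Nr6a1 had 2 windows each, of which 1 is printed, and for Nr6a1 it is the 1 with half-sites.
Nr2f1, window 1: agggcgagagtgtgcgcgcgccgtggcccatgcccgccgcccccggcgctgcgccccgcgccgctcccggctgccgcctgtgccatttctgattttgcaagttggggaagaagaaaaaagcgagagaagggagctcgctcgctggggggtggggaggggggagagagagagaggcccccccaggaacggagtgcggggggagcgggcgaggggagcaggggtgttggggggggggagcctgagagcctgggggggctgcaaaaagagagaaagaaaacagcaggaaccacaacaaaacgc
Nr2f2: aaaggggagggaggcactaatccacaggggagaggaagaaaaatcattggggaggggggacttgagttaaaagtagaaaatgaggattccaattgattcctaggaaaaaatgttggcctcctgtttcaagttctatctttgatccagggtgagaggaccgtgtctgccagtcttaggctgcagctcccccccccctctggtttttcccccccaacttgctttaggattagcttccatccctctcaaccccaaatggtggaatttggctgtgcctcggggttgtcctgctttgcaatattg
Nr6a1, window 2: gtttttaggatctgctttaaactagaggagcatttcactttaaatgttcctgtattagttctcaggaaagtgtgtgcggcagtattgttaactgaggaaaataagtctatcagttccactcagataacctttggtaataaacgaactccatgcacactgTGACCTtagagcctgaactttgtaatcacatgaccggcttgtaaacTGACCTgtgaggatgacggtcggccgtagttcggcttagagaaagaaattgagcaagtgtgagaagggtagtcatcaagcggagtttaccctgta
AGGTCA was searched on both strands and was present in 16.3% of all 32851 windows. It lay in 3 of the 13 windows of these genes. In Nr6a1 it was absent from window 1, and in window 2 it occurred on the reverse strand 91 and 45 bases before the start. In 1 of the 2 windows of Nr5a2 it lay 64 bases before the start, and in that of Nr0b1 126 bases before it. The half-site preceded by TCA (TCAAGGTCA), which contains AGGTCA, was present in 0.423% of all windows, and direct repeats of the half-site with 0 to 5 bases between them (DR0 to DR5) in at most 0.0396%. None of these longer motifs was found in the 13 windows, which says only that those letters are not in these stretches. The windows of Nr2f1 and Nr2f2 held no AGGTCA, and the G+C content of the 2 printed was 68% and 49.7%, with 82.7% in that of Nr2f6.

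Among the 9 genes, 5 were higher and 2 were lower at day 4 than at day 0 in limma's moderated test at an adjusted p of 0.05 or below, and 2 did not pass. Changes were common in these EBs, since 25.9% of all genes were called higher and 25.6% lower in that comparison. The median log2 change of the 9 genes was 0.45, against 0.00 over all genes, and the median of the absolute changes was 0.66, against 0.21. Of all genes, 5833 had day means below 6 on every day, against 0 of the 9, so these medians compare genes unlike in signal. The 9 genes were also chosen with earlier results of these data known. In day 3 versus day 0, 4 of the 9 genes were higher and 2 were lower, where 23.8% and 28.1% of all genes were called, and the median change was 0.18, against −0.05. In day 4 versus day 3, 1 was higher and 2 were lower, where 15.8% and 12.2% of all genes were called, and the median change was −0.04, against 0.05. At least a 2-fold change was reached by 3 of the 9 genes in each comparison with day 0, namely Nr2f1, Nr2f2 and Nr6a1, and by none between day 4 and day 3.

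**Figure D1:**
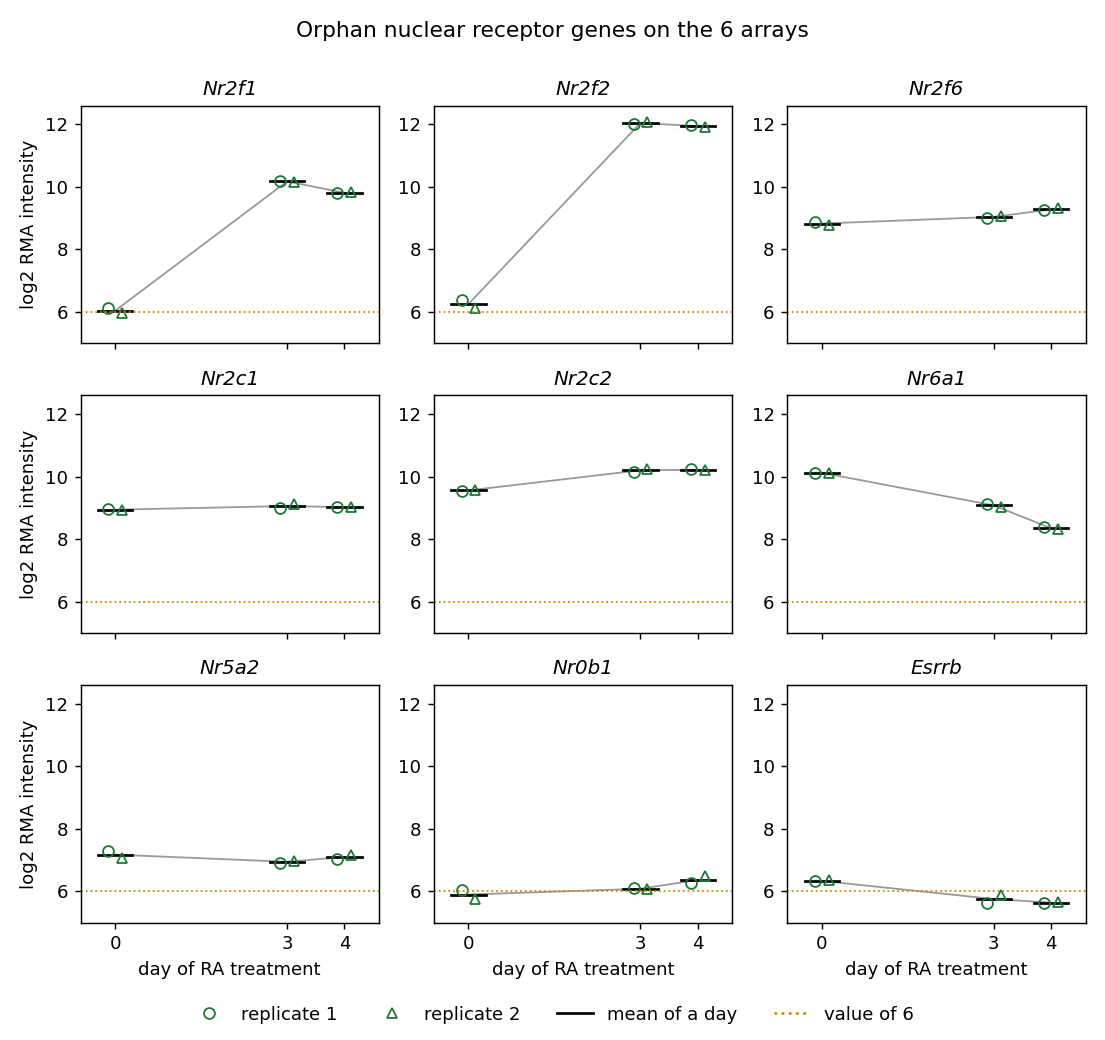
Log2 RMA intensity of each of the 9 genes on every array against the day of RA treatment. Circles mark replicate 1, triangles replicate 2, bars the mean of a day and a dotted line the value of 6. The study called genes undetectable where their intensity was below 6 and its SD was also below 0.3. Nr2f1 and Nr2f2 lie near 6 at day 0 and at 9.79 or above at days 3 and 4, Nr6a1 steps down at both days, and the other genes stay within 1 unit of their day 0 means.

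The COUP-TF genes Nr2f1 and Nr2f2 had the largest rises of the 9 genes. Nr2f2 encodes COUP-TFII, which specifies veins and is widely expressed in mesenchyme. Its log2 values were 6.37 and 6.13 on the day 0 arrays, 12.02 and 12.07 on the day 3 arrays, and 11.97 and 11.92 on the day 4 arrays. Both treated days lay far above day 0, with no overlap, and close to each other. At day 4 its intensity was 51.8 times that of day 0 (95% interval of the log2 change 5.50 to 5.89, adjusted p = 4.19e-08, limma), which ranked 3 of 19938 genes by rise. At day 3 it was 55.6 times that of day 0 (adjusted p = 3.49e-08, limma), and the log2 change between day 4 and day 3 was −0.10 (SE 0.08, adjusted p = 0.4, limma).

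Nr2f1 encodes COUP-TFI, a regulator of cortical patterning and of neural crest derivatives. It was at 6.12 and 5.96 at day 0, 10.18 and 10.17 at day 3 and then 9.79 and 9.84 at day 4. The arrays of the 3 days did not overlap, and the order was day 3, day 4, day 0. The log2 change was 3.78 (SE 0.07) at day 4, a 13.7-fold rise that ranked 56 of all genes, and 4.14 (SE 0.07) at day 3, a 17.7-fold rise that ranked 35 (adjusted p = 6.35e-08 and 4.37e-08, limma). Between day 4 and day 3 the gene was lower by a factor of 1.29 (log2 change −0.36, SE 0.07, adjusted p = 0.00784, limma). The day 0 means of Nr2f1 (6.04) and Nr2f2 (6.25) lay close to 6, below which values were taken here as weak. Both rises may therefore be understated, and their sizes were not set against each other.

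Nr2f6 (EAR2), the third COUP-TF, is widely expressed and known as a repressor in lymphocytes. It had log2 values of 8.87 and 8.79 at day 0, 9.02 and 9.07 at day 3 and then 9.25 and 9.31 at day 4. The days did not overlap and followed each other upwards, in small steps. The log2 change was 0.45 (SE 0.06) at day 4 versus day 0 (adjusted p = 0.000427, limma), 0.21 at day 3 versus day 0 (adjusted p = 0.0186) and 0.24 at day 4 versus day 3 (adjusted p = 0.023). Its rise at day 3 lost its call when arrays were centred on their medians (0.11, adjusted p = 0.124, limma) or when replicate 2 of day 0 (0.17, adjusted p = 0.1) or of day 3 (0.19, adjusted p = 0.0974) was left out. The step between day 4 and day 3 lost its call without any 1 of the 4 arrays compared (0.21 to 0.27, adjusted p = 0.0536 to 0.123), while its rise at day 4 versus day 0 was called under all 14 alternatives.

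Of the testicular receptor genes, Nr2c2 rose and Nr2c1 did not pass the test. TR2 (Nr2c1) and TR4 (Nr2c2) bind DNA together as a pair and are known to repress embryonic globin genes in red cell precursors. Nr2c2 was at 9.55 and 9.57 at day 0, 10.16 and 10.25 at day 3 and then 10.24 and 10.20 at day 4. Both RA days lay above day 0 and overlapped each other. It was 1.58-fold higher at day 4 (log2 change 0.66, SE 0.06, adjusted p = 4.15e-05, limma) and 1.56-fold higher at day 3 (0.64, adjusted p = 5.56e-05), and the change between day 4 and day 3 was 0.02 (95% interval −0.11 to 0.15). Nr2c1 was at 8.96 and 8.93 at day 0, 8.98 and 9.14 at day 3 and then 9.02 and 9.03 at day 4. None of its 3 comparisons passed, with log2 changes of 0.08 at day 4 (95% interval −0.07 to 0.23, adjusted p = 0.349, limma) and 0.12 at day 3 (−0.04 to 0.27, adjusted p = 0.179). The sign of its day 4 value turned with median centring (−0.06). Nr2c2ap, which encodes a TR4-associated protein, was lower at day 4 (−0.47, SE 0.05, adjusted p = 0.000157, limma), with 9.05 and 9.08 at day 4, against 9.55 and 9.53 at day 0.

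Nr6a1 was the gene of the 9 with the largest fall. Its product, the germ cell nuclear factor, represses Pou5f1 when embryonic cells differentiate. It was at 10.12 and 10.13 at day 0, 9.14 and 9.02 at day 3 and then 8.39 and 8.31 at day 4, with no overlap between the days. At day 4 it was lower than at day 0 by a factor of 3.42 (log2 change −1.78, SE 0.06, adjusted p = 6.53e-07, limma) and ranked 255 of all genes by fall. At day 3 it was lower than at day 0 by a factor of 2.06 (−1.04, SE 0.06, adjusted p = 8.45e-06, limma). It fell by a further 0.73 on the log2 scale at day 4 versus day 3 (adjusted p = 0.000532, limma), which ranked 201 by fall among all genes in that comparison.

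**Figure D2:**
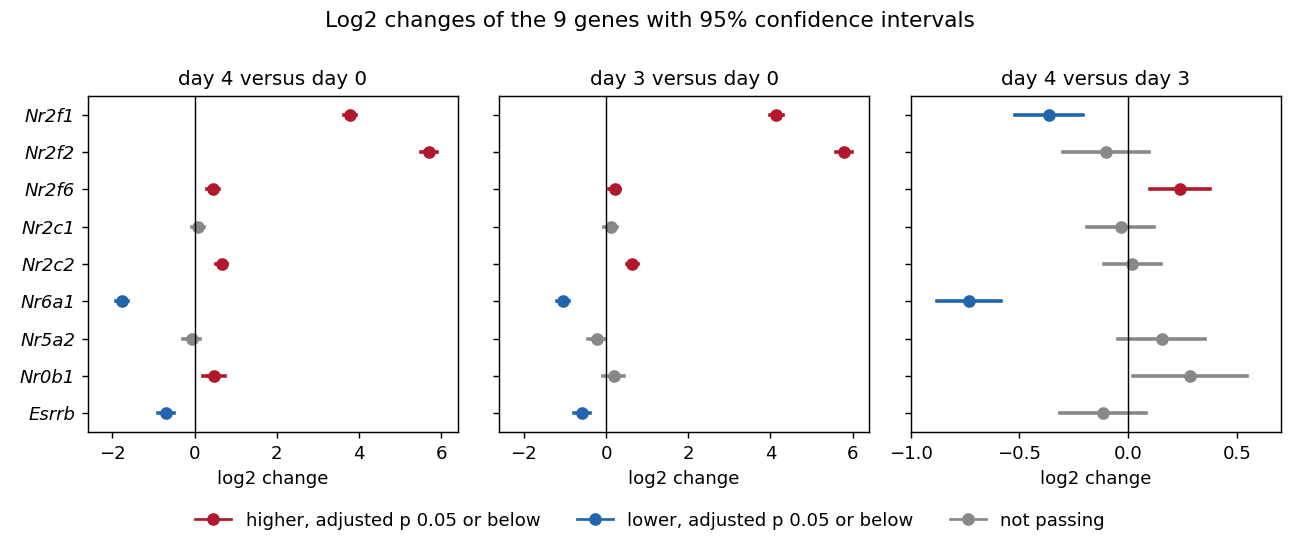
Log2 changes of the 9 genes (points) with 95% confidence intervals from limma (bars), with 1 panel for each pair of days, in red where higher, blue where lower and grey where the test was not passed. Nr2f2 and Nr2f1 stand out at 5.69 and 3.78 in day 4 versus day 0, Nr6a1 lies at −1.78, and in day 4 versus day 3, drawn on a narrower axis, Nr6a1, Nr2f1 and Nr2f6 passed.

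The remaining 3 genes, which are expressed in ES cells, gave log2 values of 7.29 or below on all arrays. Esrrb, a receptor that sustains self-renewal of ES cells, was at 6.32 and 6.35 at day 0, 5.63 and 5.88 at day 3 and then 5.64 and 5.65 at day 4. Its day 0 arrays lay above those of both RA days, which overlapped. It was lower by a factor of 1.62 at day 4 (log2 change −0.70, SE 0.08, adjusted p = 0.000279, limma) and also lower at day 3 (−0.58, adjusted p = 0.000792). Its means at day 3 (5.76) and day 4 (5.64) were below 6, near the lower end of the signal range, so its fall may be understated.

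Nr5a2, which activates Pou5f1 in the early embryo and bile acid genes in liver, was at 7.29 and 7.06 at day 0, 6.91 and 6.98 at day 3 and then 7.05 and 7.15 at day 4. The day 4 arrays overlapped those of day 0. No comparison passed, with log2 changes of −0.08 at day 4 versus day 0 (95% interval −0.27 to 0.12, adjusted p = 0.512, limma) and −0.23 at day 3 versus day 0 (−0.43 to −0.03, adjusted p = 0.0559). The day 3 value passed with median centring (−0.33, adjusted p = 0.0115, limma), without genes of a mean below 6 on every day (adjusted p = 0.0432), and without day 0 replicate 2 (−0.34, adjusted p = 0.0134).

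Nr0b1 encodes Dax1, a receptor without the usual zinc fingers that represses other receptors in ES cells, adrenal and gonad. It was at 6.05 and 5.75 at day 0, 6.11 and 6.06 at day 3 and then 6.26 and 6.48 at day 4. The day 4 arrays lay above the rest. The log2 change was 0.47 (SE 0.11) at day 4 versus day 0 (adjusted p = 0.00937, limma) and 0.18 at day 3 versus day 0 (adjusted p = 0.213). The rise at day 4 lost its call without day 4 replicate 2 (0.36, adjusted p = 0.0639, limma), and the change at day 3 passed without day 0 replicate 1 (0.33, adjusted p = 0.0415). The 2 day 0 arrays differed from each other more for Nr0b1 (SD 0.21) than for any other of the 9 genes. The day 0 mean of Nr0b1 was below 6 (5.90), so its rise may be understated.

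The other nuclear receptor genes on the array moved in both directions. Of 45 measured receptors, these 9 included, 18 were higher, 9 were lower and 18 did not pass at day 4 versus day 0. Over all genes, 25.9% were called higher and 25.6% lower in that comparison. Nr2f2 and Nr2f1 ranked 2 and 3 of the 45 by rise, behind Rarb, the RA receptor gene that RA itself induces, and Nr6a1 had the largest fall after Nr4a1, an immediate early gene. Of the other 14 orphan receptors measured, 3 were higher, Esrrg (2.01), Nr4a2 (0.44) and Nr1d2 (0.23), 3 were lower, Nr4a1 (−2.55), Nr1d1 (−1.10) and Rora (−0.53), and 8 did not pass, with a median of 0.00. Nr4a1 was at 7.71 and 7.73 at day 4, against 10.28 and 10.26 at day 0. Esrrg, the relative of Esrrb that is known from heart, muscle and brain, was at 8.09 and 8.03 at day 4, against 5.76 and 6.35 at day 0 (log2 change 2.01, SE 0.17, adjusted p = 4.18e-05, limma), while Esrrb fell. Of 22 receptors with known ligands, 10 were higher, 4 were lower and 8 did not pass, with a median of 0.20. Rarb (5.89), the vitamin D receptor gene Vdr (1.61) and the thyroid hormone receptor gene Thra (1.20) rose most. Pgr (−1.31), Rxrg (−1.16) and Nr1h3 (−0.40) fell most. Day means were below 6 on every day for 7 of these 22 and for 4 of the other 14 orphan receptors, against 0 of the 9. The counts and medians of these lists therefore compare genes unlike in signal.

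**Figure D3:**
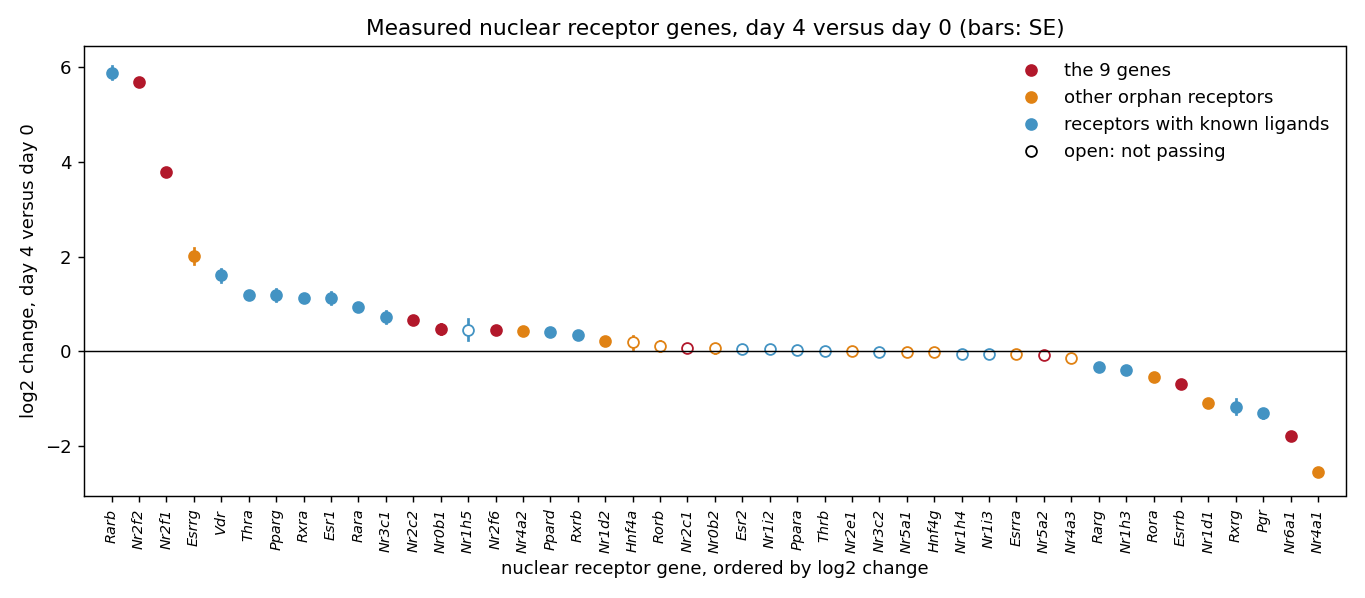
Log2 change at day 4 versus day 0 of 45 nuclear receptor genes in order of size, in red for the 9 genes, orange for other orphan receptors and blue for receptors with known ligands, with open points where the test was not passed and bars for the SE. Rarb (5.89), Nr2f2 (5.69) and Nr2f1 (3.78) stand apart at the top, and Nr6a1 (−1.78) and Nr4a1 (−2.55) lie lowest.

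Coregulators carry the action of receptors to chromatin, and some bind COUP-TFs directly. Of 24 coregulator genes measured, 10 were higher, 7 were lower and 7 did not pass at day 4 versus day 0, with a median of 0.09. The 3 largest rises were in Zfpm2 (FOG2), a partner of COUP-TFII and of Gata4, in Bcl11a, known as COUP-TF-interacting protein, and in Ppargc1a. Zfpm2 was at 10.14 and 10.16 at day 4, against 6.05 and 5.69 at day 0 (log2 change 4.28, SE 0.11, adjusted p = 1.72e-07, limma), with a day 0 mean below 6 (5.87), so its rise may be understated too. Bcl11a was at 10.63 and 10.75 at day 4, against 7.82 and 7.96 at day 0 (2.80, SE 0.07, adjusted p = 1.78e-07, limma). Ppargc1a was at 8.08 and 7.78 at day 4, against 5.65 and 5.87 at day 0 (2.17, SE 0.11, adjusted p = 3.63e-06, limma). Its day 0 mean was also below 6 (5.76). Zfpm1, the relative of Zfpm2 that works with Gata1 in blood cells, was lower (−0.35, adjusted p = 0.000673, limma), and the acetyltransferase gene Ep300 was lower as well (−0.36, adjusted p = 0.000692). Of the same 24 genes, 15 were higher and 3 were lower at day 3 versus day 0 (median 0.25), and 2 were higher and 12 were lower at day 4 versus day 3 (median −0.15). Over all genes, 25.9% were higher and 25.6% lower at day 4 versus day 0. These shares were 23.8% and 28.1% at day 3 versus day 0, and 15.8% and 12.2% at day 4 versus day 3.

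COUP-TFII is known in mouse to hold back Notch signalling and Nrp1 in veins, which makes artery and vein genes a group to read beside Nr2f2. All 15 measured passed at day 4 versus day 0, 7 higher and 8 lower, with a median of −0.45. Of all 19938 genes, 25.9% were called higher and 25.6% lower in that comparison. Day means below 6 on every day were found for 5833 of all genes, against 0 of these 15, so the shares compare genes unlike in signal. Those with the largest rises were the Tie2 ligand gene Angpt1 (3.68), the Notch ligand gene Dll4 (2.06) and the Notch target gene Hey1 (1.59), and those with the largest falls were the Notch target gene Hey2 (−2.12), Notch1 (−1.77) and Nrp2 (−1.72), a receptor of veins and lymphatics. Nrp1 and Ephb4 were named after their values were seen, outside the rule used for the others, and the rest of the 15 were only counted. Nrp1 itself was lower (−0.88, SE 0.06, adjusted p = 1.11e-05, limma), and Ephb4, a receptor gene of veins, was higher (0.53, SE 0.06, adjusted p = 0.000133). Genes known from arteries were thus found in both directions, Dll4 and Hey1 higher and Hey2 and Notch1 lower, and so were those of veins, Ephb4 higher and Nrp2 lower. The day 0 mean of Angpt1 was below 6 (5.50).

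Profiles over the 6 arrays, each centred on its own mean, were compared by Euclidean distance in log2 units. Predicted genes, clone names, LOC numbers, olfactory and vomeronasal receptors, microRNA and small nucleolar RNA genes were left out. Of the genes searched, the 3 closest to Nr2f1 were Meis2, Bnc2 and Foxp2 (0.23, 0.26 and 0.26). Those closest to Nr2f2 were Rarb, Alcam and Meis1 (0.56, 0.56 and 0.65). Nr2f1 and Nr2f2 were 2.08 apart from each other by this measure.

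**Figure D4:**
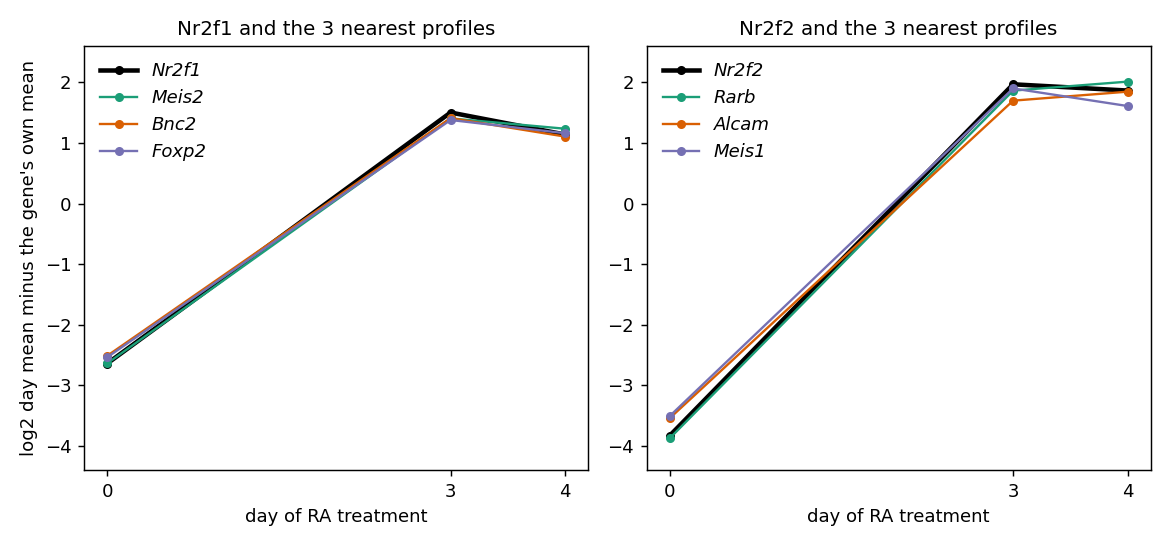
Day means of Nr2f1 (left) and Nr2f2 (right) in black, on the log2 scale and centred on the mean of the 3 days, against the day of RA treatment. In colour are the 3 genes nearest to each over the 6 arrays, of the genes searched. In all 8 curves the change at day 3 is close to or above that at day 4. Log2 changes against day 0 were 4.14 at day 3 and 3.78 at day 4 for Nr2f1, and 5.80 and 5.69 for Nr2f2.

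Markers of several cell types moved between the same days, and their part in these changes was not tested. In RNA from whole EBs, fewer cells of a type and less RNA per cell cannot be told apart. All arrays are labelled as embryonic stem cells. At day 4 versus day 0, 25.9% of all genes were called higher and 25.6% lower, the shares to set beside the counts below. Of 18 pluripotency genes, 15 were lower and none was higher at day 4, with array medians of 6.93 to 7.16 at day 4 and 8.59 to 8.79 at day 0. Pou5f1 was at 6.16 and 6.13 at day 4, against 10.27 and 10.20 at day 0, so that it fell together with its repressor gene Nr6a1. Tcl1 and Zfp42, markers of undifferentiated ES cells, had values below 6 on all 6 arrays. Of 12 mesenchyme markers, 8 were higher and 3 were lower, with array medians of 9.41 to 9.43 at day 4 and 7.21 to 7.30 at day 0. Of 9 urogenital ridge markers, 6 were higher and none was lower (8.01 to 8.18 at day 4, against 6.48 to 6.58 at day 0), and all 8 endothelium markers were higher (9.36 to 9.37 at day 4 and 8.46 to 8.64 at day 0). Of 12 visceral endoderm markers, 6 were higher and 1 was lower (6.96 to 7.07 at day 4 and 6.70 to 6.96 at day 0). Tcf21 was counted in both the mesenchyme and the urogenital ridge list, and Gata4 in both the visceral endoderm and the urogenital ridge list. Of 10 genes listed as trophoblast markers, 8 were lower and Krt7 was higher (6.85 to 6.99 at day 4 and 10.45 to 10.51 at day 0). The largest falls were in Hand1 (−5.02), Eomes (−4.78) and Cdx2 (−4.75), and whether trophoblast cells were present at day 0 was not tested. Of 9 neural progenitor markers, 2 were higher and none was lower (7.86 to 7.95 at day 4 and 7.78 to 7.85 at day 0). Of 10 neuron markers, 3 were higher and 5 were lower (7.25 to 7.31 at day 4 and 6.96 to 7.04 at day 0). The ranges given are medians of a list's levels on each array, which need not follow the median of its changes. For neuron markers the median log2 change was −0.19 although these levels rose, and for trophoblast markers it was −1.65.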

How the data were processed

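The values were made and deposited by the authors. Per the labels and methods, RNA from R1 EBs was labelled for 6 whole-transcript arrays of 1 colour (Affymetrix Mouse Gene 1.0 ST, 2 for each of days 0, 3 and 4), and the authors normalised the arrays by RMA in Partek Genomics Suite, which gives log2 intensities. The table held 35557 probe sets. GEO's platform annotation gave 1 symbol to 21789, several to 1621 and none here to 12147. Each of 19938 genes was represented by its brightest single-symbol probe set. The number of arrays limits the precision. No background or detection column was used here, so values below 6 were taken as weak. The 6 comes from the study, which called genes undetectable where intensity was below 6 and its SD was also below 0.3. By that joint rule, applied to mean and SD over the 6 arrays, none of the 9 genes was undetectable.

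A mean per day was fitted over all 6 arrays with limma 3.58.1 (R 4.3.3), and p-values of the moderated test, two-sided, were adjusted over all genes by Benjamini-Hochberg, with calls at 0.05 or below. Intervals are 95% intervals of the same fit, which had 3 residual degrees of freedom and 4.07 of the prior. On simulated data with the same number of genes the fit was tested before use. The 9 genes and the lists were chosen with earlier results of these data known. All 9 genes were named. Of each other list, up to 3 risers, 3 fallers and 2 that did not pass could be named from day 4 versus day 0, and nearest profiles were sought for genes whose day means spanned 2 or more. The 24 coregulators, 14 orphan receptors and 22 receptors with ligands are those measured of 26, 16 and 24 listed. Zfp42, Nrp1 and Ephb4 were named after their values were seen.

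Alternatives were median centring, cyclic loess, the mean of a symbol's probe sets, a filter on weak genes, an intensity trend with robust moderation, only the arrays of the days compared, all probe sets, the replicate block, and leaving out each array. Promoter windows were matched by symbol in RefSeq's table. The array files name no genome build and no coordinates were used.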

Additional observations from a re-analysis of the deposited data

Results flagged for a closer look

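The change since day 0 differed between day 4 and day 3 for 3 of the 9 genes, as tested by day 4 versus day 3 in limma. Over all genes, 15.8% were called higher and 12.2% lower in that comparison, so such calls were common. For Nr6a1 the difference was −0.73 on the log2 scale (adjusted p = 0.000532), lower on both day 4 arrays than on both day 3 arrays. For Nr2f1 it was −0.36 (adjusted p = 0.00784), likewise lower on both day 4 arrays. For Nr2f6 it was 0.24 (adjusted p = 0.023), higher on both day 4 arrays, and that call was lost without any 1 of the 4 arrays of those days (0.21 to 0.27, adjusted p = 0.0536 to 0.123). With 2 arrays a day, no array could be examined as an outlier within its day.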

How the results depend on the processing

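Over 14 alternatives, 378 changes of the 9 genes were recomputed, of which 366 stayed on their side of the threshold, 8 lost their call and 4 gained one. The sign turned in 7 of the 366, all of them changes that did not pass, of Nr2c1, Nr2c2, Nr5a2 and Esrrb, with values of up to 0.065 in size after the turn, and in 0 called changes. These 12 concern Nr2f6, Nr5a2 and Nr0b1 only and are given with those genes. The number of the 9 genes called higher at day 4 versus day 3 was 1, and 0 without any 1 of the day 3 or day 4 arrays. The calls of Nr2f1, Nr2f2, Nr2c2, Nr6a1 and Esrrb were the same under all 14. The 14 are not independent checks. Each of the 9 genes had 1 probe set, so the mean of its probe sets or all probe sets could not move its log2 change. The weak-gene filter, the trend and the replicate block left it unchanged too. Leaving out an array of the day not compared gave the same fit as using only the arrays of the days compared.

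Median centring moved the median change of all genes by about the size of the smallest changes here, to −0.15 at day 4 versus day 0 and at day 3 versus day 0, and turned 5154 higher and 5106 lower calls into 3781 and 8521, and 4749 and 5596 at day 3 into 3889 and 8495. At day 4 versus day 3 it gave 2268 higher and 3081 lower calls, against 3156 and 2437. RMA assumes a like distribution of signal on all arrays, which could not be checked here. Arrays with the same replicate number did not deviate together (correlations 0.03 to 0.08), and a fit with the replicate block called 10251 genes at day 4 versus day 0, against 10260, with 5 of the 9 genes higher and 2 lower, and changed none of their calls. Values near or below 6 limit what can be read of the rise of Nr0b1 and of the fall of Esrrb.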
